A study of Mus musculus with 96 samples.

Results

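The cold-sensitive neurons of this series are the preoptic cells whose label for temperature sensitivity reads cold-sensitive, and there were 5 of them among 96 sequenced cells. They were set against the 24 cells labelled temperature-insensitive that were not silent, called insensitive cells here. The other cells were 21 warm-sensitive, 10 silent sensitive, 18 silent insensitive and 18 of unknown class. Every cell of both classes was a neuron of the hypothalamic preoptic area of a C57BL/6N mouse aged 2 to 3 months, was recorded by whole-cell patch clamp, was then picked with a glass pipette and was sequenced after Smart-seq2 amplification and Nextera XT library preparation (Patch-seq). The labels give no genotype change, drug or sex, and no animal, slice or day, so cells of 1 class may share an animal. Each class therefore counts as 1 sample. The differences below describe these 29 cells without a test, and each standard deviation (SD) is over cells.

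The preoptic area holds neurons that respond to local brain temperature and to signals from thermoreceptors in the skin, and its output sets heat production, heat loss and fever. A cold-sensitive neuron fires faster when it is cooled, and an insensitive neuron changes its firing little. Firing depends on voltage-gated sodium channels and the proteins that bind them, on potassium and leak channels that hold the resting potential, and on the receptors through which other neurons excite or inhibit the cell.

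Pan-neuronal genes were found in all 5 cold-sensitive cells. Snap25, a protein of the synaptic vesicle fusion machinery, stood at 1099, 1643, 1804, 2441 and 1256 CPM, that is counts scaled to a library of 1000000, in cold-sensitive cells 1 to 5, against a lowest, median and highest value of 7.78, 1508 and 6077 CPM in the insensitive cells. The 15 pan-neuronal genes summed to between 3761 and 7172 CPM in cold-sensitive cells, within the range of 1190 to 14778 CPM in insensitive cells. Of these 15 genes, 14, 13, 13, 7 and 13 reached 10 CPM in cold-sensitive cells 1 to 5, against a median of 13 in insensitive cells. Cell 4 thus had fewer neuronal genes at that level than the other 4 cold-sensitive cells, while its Snap25 was the highest of the 5. The mean log2(CPM + 1) was lower in cold-sensitive cells for 10 of the 15 genes and higher for 5, Snap25 among them. It was lower for 3045 of the 4644 genes compared further below.

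Library quality differed among the 5 cells. Total counts were 1565248, 2442241, 2738417, 865299 and 1564279 in cold-sensitive cells 1 to 5, against 838125 to 3138144 in insensitive cells. Rn45s, the ribosomal RNA precursor, took 53.1%, 56.1%, 45.2%, 69.8% and 62.2% of these counts, against a median of 45.4% in insensitive cells. Genes with at least 1 count numbered 5006, 3858, 5179, 2199 and 4645, against 3236 to 7210 in insensitive cells. Cell 4 lay below every insensitive cell in detected genes, and the other 4 cold-sensitive cells lay inside their range. The main counts, and the called list members whose difference shrank most without cell 4, are given with and without it.

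RNA of other cell types was also uneven. The 12 microglia markers summed to 12463, 9987, 361, 11.6 and 3512 CPM in cold-sensitive cells 1 to 5, against 4.18, 562 and 17525 CPM as the lowest, median and highest insensitive cell. The sum passed 3000 CPM in 3 of 5 cold-sensitive and 5 of 24 insensitive cells. In cold-sensitive cells 1 and 2 it lay above the pan-neuronal sum, of 4659 and 5769 CPM, as in insensitive cells 2, 5, 18 and 23. In cell 4 no microglia marker reached 10 CPM, and Tmem119, a gene specific to microglia in brain, was at 0 in all 5 cells. The 10 oligodendrocyte markers summed to 1423, 497, 48.9, 558 and 35.8 CPM, against a median of 116 CPM and a highest value of 1387 CPM in insensitive cells. Astrocyte markers summed to between 313 and 2701 CPM in cold-sensitive cells, with 2 of the 10 markers at 0 in all 5 cells, against a median of 947 CPM in insensitive cells. Of the 8 endothelial and mural markers, 6 were at 0 in all 5 cold-sensitive cells. Their sum ran from 0 to 154 CPM there, almost all of it Itm2a, against 0 to 503 CPM in insensitive cells. The 4 ependymal and tanycyte markers were at 0 in both classes. Microglia marker RNA thus stood high in cells 1, 2 and 5 and low in cells 3 and 4, while oligodendrocyte sums were highest in cells 1 and 4 and astrocyte sums in cells 4 and 3. In cell 4 only 1 oligodendrocyte and 1 astrocyte marker reached 10 CPM, against medians of 1 and 2 in insensitive cells. Each of these 2 sums of cell 4 thus came mostly from 1 gene.

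**Figure D1:**
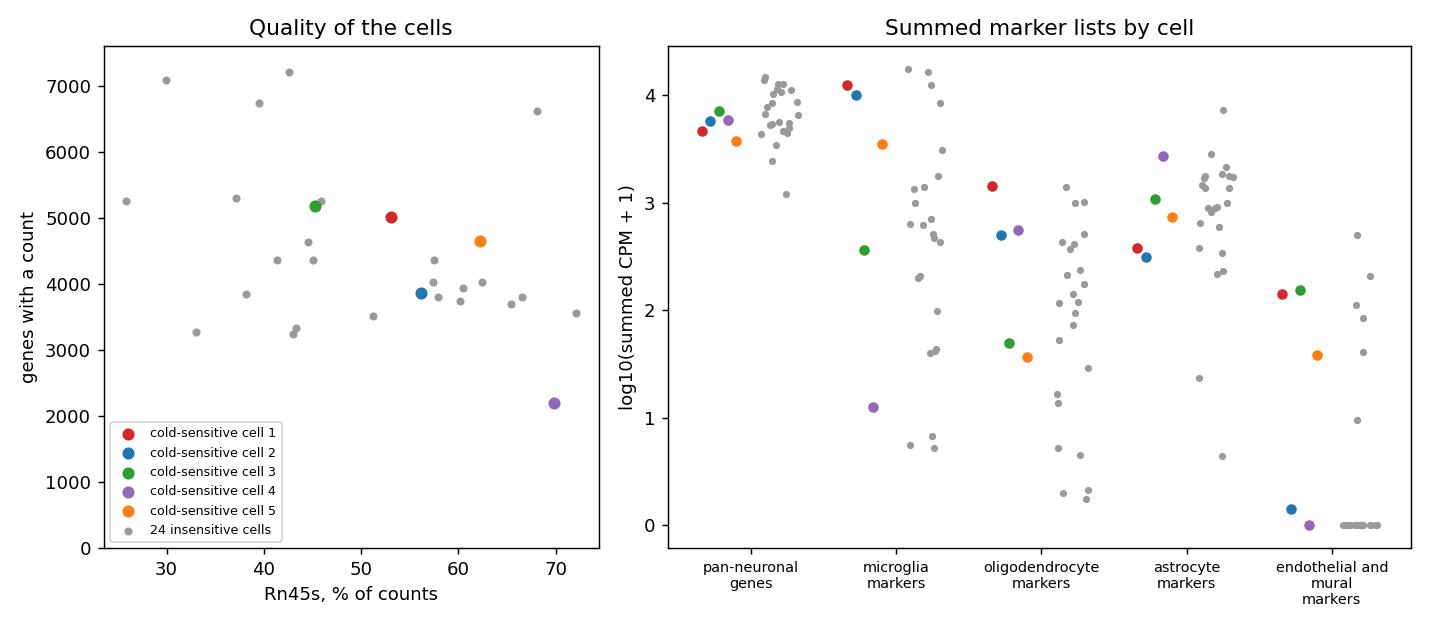
The left panel plots genes with a count against the share of counts in Rn45s, in %, for each cell, with the 5 cold-sensitive cells in colour and the 24 insensitive cells in grey. The right panel plots the summed CPM of 5 marker lists on a log10 scale (sum + 1): cold-sensitive cell 4 has the fewest genes, 2199, and the microglia sums of cold-sensitive cells 1 and 2 stand near the top of the insensitive range.

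Genes were compared where at least 25% of the cells of either class, and at least 3 cells, reached 10 CPM. Of 24054 genes in the table, 4644 met this limit and are called eligible. A difference is the mean log2(CPM + 1) of the cold-sensitive cells minus that of the insensitive cells, and a gene is called at a difference of 2, or 4-fold, in size. By this rule 224 genes (4.82% of those eligible) were called higher and 473 (10.2%) lower in cold-sensitive cells. No gene separated the classes completely in either direction: for each of the 4644 the ranges of the classes overlapped.

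How a gene became eligible bore on that split. Of the 4644 genes, 3017 were eligible through insensitive cells alone, and 449 of these were called lower and 2 higher. A further 93 were eligible through cold-sensitive cells alone, with 76 called higher and none lower. Genes of these kinds could hardly differ in the other direction. Among the 1534 genes eligible through both classes, 146 were called higher and 24 lower, with a median difference of 0.34. This subset was not balanced either. Its genes had to reach 10 CPM in at least 3 of the 5 cold-sensitive cells, but in only 25% of the insensitive cells, a smaller share. That choice by itself favours higher means in cold-sensitive cells, so no direction is read from these values. The poor cell 4 entered here as well: without it, 500 genes were called higher and 376 lower, and cell 4 itself had 8.55% of eligible genes at 10 CPM, against 47.2%, 36.1%, 54.8% and 51.0% in cells 1, 2, 3 and 5. Titles carry a letter, and the 4 letters that hold both classes gave 283 genes higher and 539 lower when cells were compared within a letter, with 162 and 306 of the first calls among them. Relative to the median eligible gene, which lay at -0.52, 406 genes were called higher and 194 lower.

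Most called genes were not shared by all 5 cells. Of the 224 genes called higher, 29 reached 10 CPM in all 5 cold-sensitive cells, 65 in 4, 128 in 3 and 2 in 2. Of the 473 called lower, 267 reached 10 CPM in no cold-sensitive cell, 125 in 1 and 57 in 2. These tallies were bounded by the limit for eligible genes. A gene eligible through cold-sensitive cells had at least 3 of them at 10 CPM, and one eligible through insensitive cells alone at most 2. Of the genes called higher 2, and of those called lower 449, were eligible through insensitive cells alone. The genes called higher were at 10 CPM in 194, 166, 177, 69 and 187 cases in cells 1 to 5. Cell 4 thus showed 30.8% of them, and it was still the cell with the highest value for 50 of the 224.

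**Figure D2:**
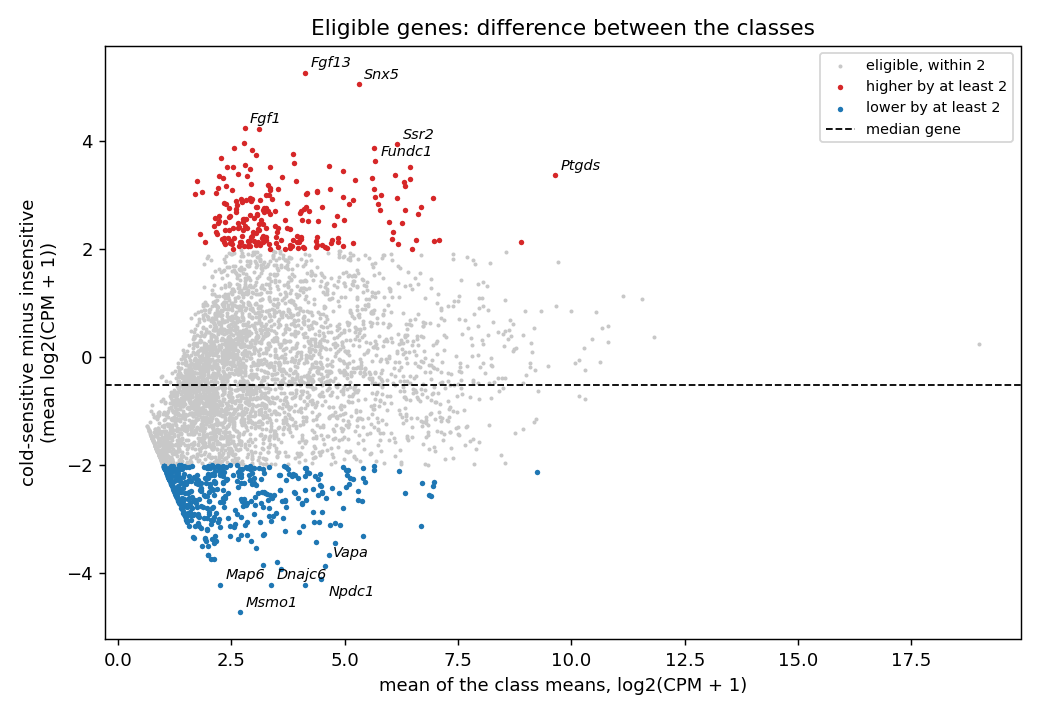
Each point is an eligible gene, plotted by the mean of the class means (x axis) and by the difference of cold-sensitive minus insensitive cells (y axis), both in log2(CPM + 1). Red points are the 224 genes higher by at least 2, blue points the 473 lower by at least 2, and the dashed line is the median gene at -0.52; Fgf13 and Snx5 lie apart at the top.

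Fgf13 was the only eligible gene at 10 CPM in all 5 cold-sensitive cells and in at most 25% of insensitive cells (1 of 4644 genes, or 0.0215%). It was among the 93 genes eligible through cold-sensitive cells alone. The 3017 genes eligible through insensitive cells alone could not meet this rule, so the share of 4644 counts many genes that could not pass. Fgf13 encodes an FGF homologous factor, a protein that is not secreted but binds the tail of voltage-gated sodium channels inside the cell and adjusts their inactivation. Its level was 119, 147, 137, 68.2 and 85.0 CPM in cold-sensitive cells 1 to 5, against 0, 0 and 190 CPM as the lowest, median and highest insensitive cell. The mean log2(CPM + 1) was 6.75 ± 0.47 (SD, 5 cells), against 1.48 ± 2.39 in insensitive cells (SD, 24 cells), of which 14 had no Fgf13 count. The rule that picked Fgf13 asks for 10 CPM in all 5 cold-sensitive cells, cell 4 among them, and in few insensitive cells. That by itself favours the smaller spread in cold-sensitive cells, so no evenness of the class is read from these SDs. Over the class, summed counts gave 121 CPM (95% Poisson interval 114 to 129), against 16.05 CPM (14.8 to 17.3) in insensitive cells. These intervals cover the counting of reads only.

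The insensitive cells at 10 CPM of Fgf13 covered a wide range. Cells 5, 10, 23 and 24 held 60.3, 190, 23.7 and 93.5 CPM, so that 2 of them lay above the lowest cold-sensitive cell and 1 above the highest. Insensitive cells 6 and 20 fell below the limit, at 9.76 and 7.77 CPM. The share at 10 CPM was 100% of cold-sensitive cells (exact Clopper-Pearson 95% interval 47.8% to 100%) and 16.7% of insensitive cells (4.74% to 37.4%), with cells taken as independent draws. Fgf13 was picked by these same shares, so no difference between the classes is read from the intervals. In the other classes the share at 10 CPM was 23.8% of warm-sensitive, 40% of silent sensitive and 33.3% of silent insensitive cells. Insensitive cells 5, 10 and 23 had microglia sums of 17525, 3050 and 8470 CPM, and cell 24 had 4.53 CPM. Among the cold-sensitive cells, 3 and 4 carried Fgf13 with microglia sums of 361 and 11.6 CPM. With the 3 cold-sensitive and 5 insensitive cells over 3000 CPM of microglia markers left out, the Fgf13 difference was 5.79. Those 5 included insensitive cells 5, 10 and 23, so leaving them out lowered the insensitive mean of Fgf13 itself. The part of microglial RNA in Fgf13 was not tested. Within title letters the Fgf13 difference was 5.13, and with any 1 cell left out it stayed between 5.16 and 5.54, beside 5.27 with every cell.

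The other 3 FGF homologous factors did not share this pattern. Fgf12 was at 215, 179, 11.3, 0 and 6.39 CPM in cold-sensitive cells 1 to 5, against a median of 18.7 CPM and a highest value of 709 CPM in insensitive cells, of which 13 of 24 reached 10 CPM. Fgf14 reached 10 CPM in cell 3 (11.7 CPM), against 2 of 24 insensitive cells. Fgf11 was at 0 in all 5 cells and had at most 0.373 CPM in an insensitive cell. Sodium channel subunits, the partners of these factors, were not called as a group: of 7 eligible members none differed by 2, with a median of -0.19. Scn1a, a pore-forming subunit, came nearest, with 94.6, 47.9, 36.2, 1.16 and 16.6 CPM, against a median of 2.52 CPM and a highest value of 338 CPM in insensitive cells, a difference of 1.93 that within letters was 0.58. Fgf13 lies on mm10 chromosome X at 59062145 to 59568071 on the minus strand, and no exon of another annotated gene overlaps its exons.

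Among the 12 genes named for the largest higher means, another 4 reached 10 CPM in all 5 cold-sensitive cells. Snx5, a sorting nexin that shapes membrane tubules on endosomes, was at 268, 109, 101, 2009 and 101 CPM, against 0, 0.782 and 605 CPM as the lowest, median and highest insensitive cell. Cell 4 stood far above the other cold-sensitive cells, and those 4 lay within the range of the insensitive cells at 10 CPM, of which there were 8. The difference was 5.06, and 4.27 without cell 4, with SDs of 1.85 and 3.22 over the cold-sensitive and the insensitive cells. In summed counts the ratio was 2.11 on the log2 scale. Snx5 lies on chromosome 2 at 144250123 to 144270906, where exons of Mgme1 overlap it on the other strand; the sources used here do not say whether reads were counted by strand, so reads of the overlap cannot be told apart.

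Ssr2, a subunit of the translocon-associated complex of the endoplasmic reticulum, was at 333, 249, 229, 1264 and 69.7 CPM in cold-sensitive cells 1 to 5, against a median of 37.8 CPM and a highest value of 971 CPM in insensitive cells. Ccdc92, a coiled-coil protein, was at 78.6, 181, 240, 1067 and 69.0 CPM, against a median of 17.4 CPM and a highest value of 237 CPM. Fundc1, a mitophagy receptor of the outer mitochondrial membrane, was at 112, 48.7, 119, 1283 and 215 CPM, against a median of 41.4 CPM and a highest value of 472 CPM. All 3 were present in every cold-sensitive cell and reached 10 CPM in 13, 13 and 12 of 24 insensitive cells, so these genes differ from Fgf13 in being common among insensitive cells. Their differences of 3.95, 3.88 and 3.64 became 3.41, 3.26 and 2.93 without cell 4 and 5.54, 3.92 and 3.43 within letters. On the scale of summed counts, in which cells without the gene weigh less, the log2 ratios were 1.70, 1.82 and 1.17.

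The other 7 named genes with a higher mean owed it to 3 or 4 of the cells. Coq9, which acts in coenzyme Q synthesis, was at 194, 116, 196, 0 and 98.4 CPM in cold-sensitive cells 1 to 5, and 6 of 24 insensitive cells reached 10 CPM. Arl4c, a small GTPase related to Arf, was at 147, 641, 21.9, 1.16 and 75.4 CPM, against 6 of 24 insensitive cells at 10 CPM. Cryab, the small heat shock protein alpha-B crystallin, was at 118, 48.7, 69.0, 1.16 and 26.2 CPM, against 3 of 24 insensitive cells. These 3 genes were high in cells 1, 2, 3 and 5 and at or near 0 in cell 4. Cryab is also made by oligodendrocytes, and the 3 insensitive cells with it lay above every cold-sensitive cell, up to 492 CPM; its log2 ratio of summed counts was 0.77, beside a mean difference of 3.75. The differences of Coq9 and Arl4c were 3.76 and 3.61 with every cell and 1.68 and 1.13 without the cells over 3000 CPM of microglia markers, and the part of microglial RNA in them was not tested.

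Of these 7 genes, 3 encode secreted or membrane proteins. Fgf1, a secreted fibroblast growth factor, was at 0, 93.8, 160, 1004 and 0.639 CPM, against a highest value of 41.8 CPM in insensitive cells, so its 3 positive cold-sensitive cells lay above all 24. Efnb3, a membrane-bound ligand of Eph receptors, was at 49.8, 9.01, 0, 660 and 42.8 CPM, against 3 of 24 insensitive cells at 10 CPM. Tmem123, a transmembrane protein, was at 152, 0, 86.9, 0 and 112 CPM, against 1 of 24 insensitive cells. Each of these genes was absent or near 0 in at least 1 cold-sensitive cell. Cell 4 held the highest Fgf1 and Efnb3, and without it their differences were 2.98 and 2.81, beside 4.25 and 3.96. Akr1e1, an aldo-keto reductase, was at 112, 175, 303, 0 and 2.56 CPM, against 3 of 24 insensitive cells at 10 CPM. Like Fgf13, the genes Fgf1, Efnb3, Tmem123, Akr1e1 and Cryab were eligible through cold-sensitive cells alone.

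Of the eligible genes, 7 (0.151% of 4644) stayed below 10 CPM in all 5 cold-sensitive cells and reached it in at least 60% of insensitive cells. By this rule all 7 were among the 3017 genes eligible through insensitive cells alone. Map6, a microtubule-associated protein named for keeping microtubules stable in the cold, was at 0, 0, 0, 0 and 0.639 CPM, against a median of 23.2 CPM and a highest value of 293 CPM in insensitive cells. Msmo1, a methylsterol oxidase of cholesterol synthesis, was at 0, 0.409, 0, 1.16 and 0 CPM, against 93.8 and 2062 CPM. Dnajc6, or auxilin, which removes the clathrin coat from vesicles at nerve terminals, was at 1.92, 0.819, 1.83, 0 and 4.47 CPM, against 69.6 and 384 CPM. These 3 genes were near 0 in every cold-sensitive cell, those with many detected genes included, and 15, 15 and 20 of 24 insensitive cells reached 10 CPM. Their SDs were 0.32, 0.49 and 0.91 over the cold-sensitive cells and 2.96, 3.64 and 2.44 over the insensitive cells. The rule keeps every cold-sensitive cell below 10 CPM, which by itself makes their SDs small, so no evenness of the class is read from them. On mm10 Map6 lies on chromosome 7 at 99267447 to 99337137, Msmo1 on chromosome 8 at 64718139 to 64733792 and Dnajc6 on chromosome 4 at 101496648 to 101642799, and no exon of another annotated gene overlaps theirs.

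Another 3 of the 7 genes act at synapses or between neurons and glia. Grin2b, a glutamate-binding subunit of NMDA receptors, was at 0.639, 0, 1.46, 8.09 and 0 CPM in cold-sensitive cells 1 to 5, against a median of 16.01 CPM and a highest value of 199 CPM in insensitive cells. Adam22, a synaptic receptor for the secreted protein Lgi1, had at most 0.639 CPM in a cold-sensitive cell, against a median of 18.1 CPM in insensitive cells. Cx3cl1, the neuronal ligand of the microglial receptor Cx3cr1, was at 2.56, 2.05, 9.13, 2.31 and 1.28 CPM, against a median of 39.1 CPM. Either 15 or 16 of 24 insensitive cells had each of these 3 genes at 10 CPM. Grin2b differed by -3.08, by -2.25 within letters, and by -2.82 to -3.62 with any 1 cell left out. In the other classes 4 of 21 warm-sensitive, 2 of 10 silent sensitive and 7 of 18 silent insensitive cells had Grin2b at 10 CPM.

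Other named genes with a lower mean were split by whether 1 cold-sensitive cell kept them. Zfr, an RNA-binding zinc finger protein, was at 8.31, 113, 0, 0 and 0 CPM, against 19 of 24 insensitive cells at 10 CPM. Npdc1, a regulator of neural proliferation, was at 0.639, 0.819, 418, 1.16 and 0.639 CPM, against 18 of 24. Psmc1, an ATPase subunit of the proteasome, was at 0, 0, 2.56, 0 and 82.5 CPM, against 15 of 24. Vapa, which tethers the endoplasmic reticulum to other membranes, was at 1.28, 0.819, 9.86, 0 and 209 CPM, against 20 of 24. Each of these 4 genes had a single cold-sensitive cell at 10 CPM, cell 2 for Zfr, cell 3 for Npdc1 and cell 5 for Psmc1 and Vapa. Coa3, an assembly factor of respiratory complex IV, likewise stood at 83.1 CPM in cell 5 and at most 1.28 CPM in the other 4, against 19 of 24 insensitive cells. Npdc1 differed by -4.12, against -1.95 without the cells over 3000 CPM of microglia markers and -1.14 in summed counts, and its exons overlap those of Entpd2 on the same strand.

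Nr2f2, Gtf2f1 and Coro1b were below 1 CPM in all 5 cold-sensitive cells. They encode the nuclear receptor COUP-TFII, a subunit of the general transcription factor TFIIF and an actin-binding coronin. They reached 10 CPM in 13, 13 and 12 of 24 insensitive cells, with highest values of 472, 344 and 625 CPM. With about as many insensitive cells below 10 CPM as above, a cold-sensitive cell at 0 resembled many single insensitive cells. Their differences were -3.75, -3.74 and -3.67, and -3.35, -3.21 and -3.64 within letters. Exons of other genes overlap those of Nr2f2 and Coro1b, and Gtf2f1 lies alone on chromosome 17 at 57003405 to 57011288.

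**Figure D3:**
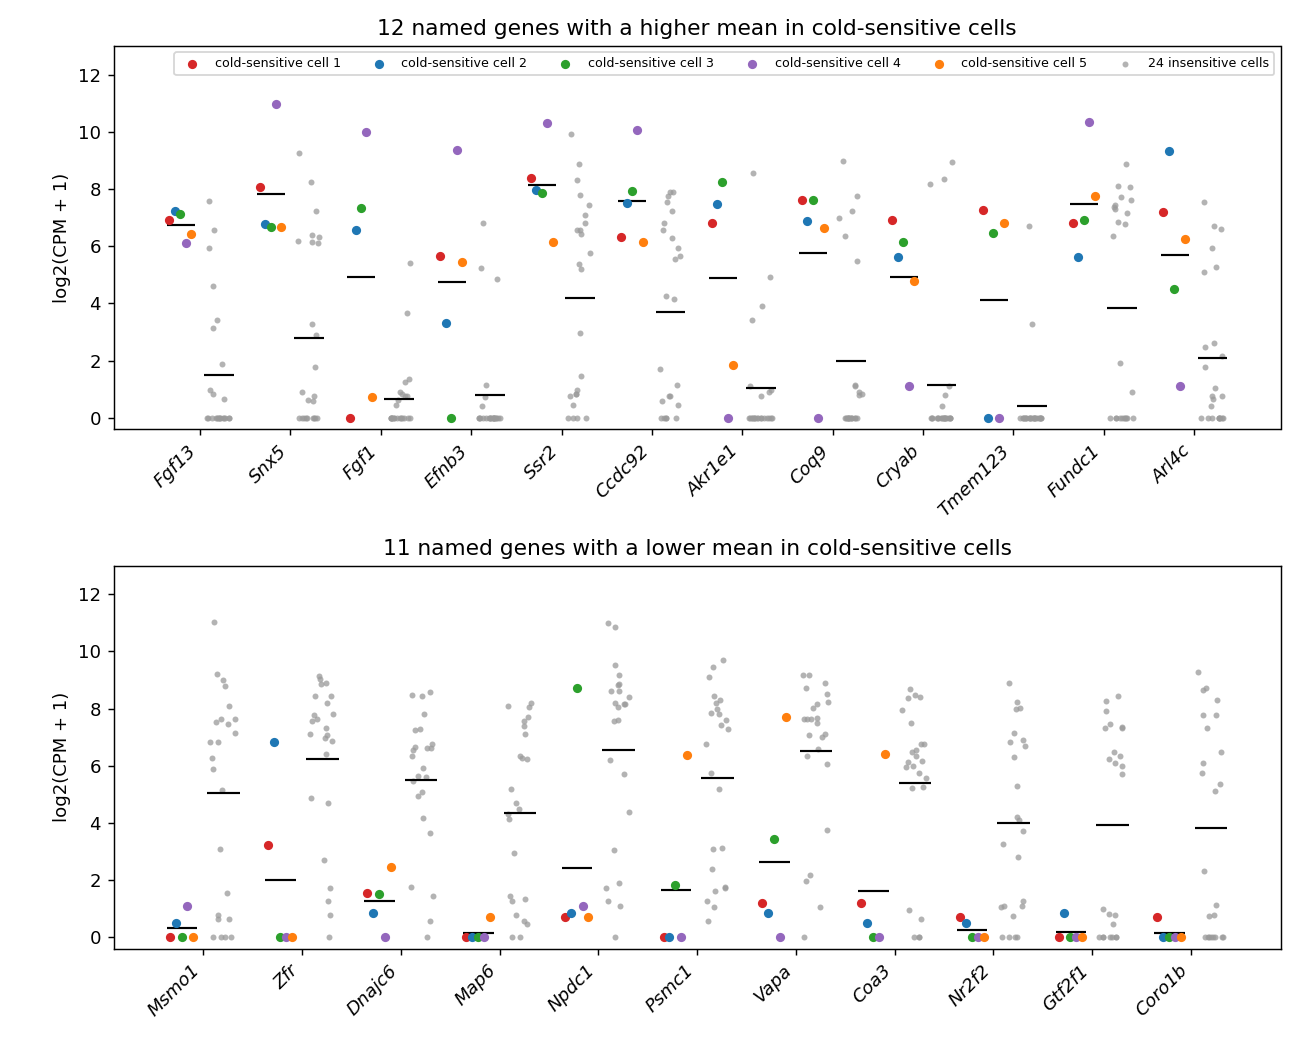
Values of 23 named genes in log2(CPM + 1), 12 higher above and 11 lower below; for each gene the 5 cold-sensitive cells stand on the left in colour and the 24 insensitive cells on the right in grey, and bars are class means. The 5 cold-sensitive cells lie together for Fgf13 (68.2 to 147 CPM) and near 0 for Msmo1 and Map6, while Fgf1 and Tmem123 are split among them.

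Functional lists were described by the count of their eligible members called and by their median, beside a median of -0.52 and called shares of 4.82% higher and 10.2% lower over all eligible genes. The lists and their members were chosen with earlier results of these cells known. Over 43 lists, 19 different genes were called higher and 36 lower. Of these, 10 and 18 kept a difference of at least 2 with any 1 cell left out; for a call that did not, the value nearest 0 with 1 cell left out is given below.

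Receptors for fast transmitters had list medians below 0. That of 11 eligible GABA receptor subunits was -0.88, which within letters was 0.07. Of 7 eligible ionotropic glutamate receptor subunits 2 were called lower, Grin2b and Gria3, an AMPA receptor subunit. Gria3 differed by -2.04, and by -1.79 without insensitive cell 3. Their list median of -1.19 was -0.37 without cell 4.

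Channels that set excitability were mostly uncalled. Among 12 eligible voltage-gated potassium channel genes, Kcnab1, an auxiliary beta subunit, was called lower at -2.89, with at most 0.365 CPM in a cold-sensitive cell, against 10 of 24 insensitive cells at 10 CPM. Among 5 eligible leak, two-pore potassium and HCN channel genes, Unc79, a subunit of the sodium leak channel complex, was called lower at -2.16. It was at 21.5 CPM in cell 3 and 0 in the other 4 cold-sensitive cells, and the call ended at -1.94 without cell 1. No voltage-gated calcium channel gene of 6 eligible was called, with a median of -0.94. Of 19 TRP channel genes 1 was eligible: Trpc5, a cation channel that opens in the cold in mouse sensory neurons, was at 0 in all 5 cold-sensitive cells and at 10 CPM in 6 of 24 insensitive cells. Trpm8 and Trpv1, the cold and heat channels of skin afferents, were at 0 in all 5 cells, and in insensitive cells Trpm8 reached at most 7.78 CPM and Trpv1 was at 0. Hcn2 was at 20.4 CPM in cell 1 and 0 in the other 4, against at most 8.18 CPM in insensitive cells. A count of 0 in 5 of 5 cells leaves room for a share of up to 52.2% (exact 95% interval, with cells taken as independent), so an absence here does not separate these classes.

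Peptides, their receptors and identity genes varied from cell to cell. None of 4 eligible neuropeptide genes was called. Of the granin and peptide processing genes 2 of 10 eligible were called lower. Chga, a granin of dense core vesicles, was at 0.639, 29.5, 194, 0 and 0 CPM, against a median of 147 CPM in insensitive cells, a difference of -3.42, or -2.75 without cell 4. Scg3, another granin, differed by -2.04, by -1.64 without cell 1 and by 0.12 within letters, which ends its call. Ntrk2, the receptor for Bdnf, was the called gene among 4 eligible receptors, at 0.639, 0, 63.2, 1.16 and 172 CPM, against a median of 107 CPM and 20 of 24 insensitive cells at 10 CPM. Of 20 preoptic and hypothalamic transcription factors 3 were eligible, all through insensitive cells, and Isl1 and Tshz2 were called lower. Both were at 0 in all 5 cold-sensitive cells and at 10 CPM in 10 of 24 insensitive cells, and 11 of the 20 factors were at 0 in all 5.

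Lists of cell maintenance held genes called both ways. Among 35 eligible proteasome subunits 3 were called higher and 3 lower. Psmd14, a deubiquitinating subunit of the lid, was at 114, 156, 346, 1317 and 107 CPM, against a median of 112 CPM in insensitive cells, a difference of 2.66, or 2.05 without cell 4. Psmb8, an immunoproteasome subunit that microglia also express, was at 241, 328, 0, 0 and 85.7 CPM, against 4 of 24 insensitive cells at 10 CPM, and it was thus found in the cold-sensitive cells rich in microglia markers; the part of microglial RNA in it was not tested. Psmb3 differed by 2.17, and by 1.31 without cell 4. Psmc1 and Psmb10 kept their calls with any 1 cell left out, and Psma2 differed by -2.61, or by -1.79 without cell 4.

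Among 26 eligible motor genes Kif5b was called higher and 5 were called lower. Kif5b, a conventional kinesin heavy chain, was at 221, 206, 142, 1596 and 79.3 CPM, against a median of 54.2 CPM and a highest value of 479 CPM in insensitive cells, a difference of 3.25, or 2.57 without cell 4. Dync1li1 and Dctn6, of the dynein and dynactin complexes, differed by -2.61 and -2.66 and kept their calls with any 1 cell left out. Kif1a, Kif1b and Dctn3 differed by -2.32, -2.25 and -2.38, and by -1.42 without cell 5, -1.17 without cell 4 and -1.56 without cell 2. Of 15 eligible microtubule genes 3 were called lower, Map6, Mapre1 and Map9. Mapre1, a protein of growing microtubule ends, was at 13.4, 24.2, 4.02, 2.31 and 0.639 CPM, against a median of 110 CPM in insensitive cells. Map9 differed by -2.03, or -1.58 without cell 1. The list's median was -1.11, and -0.32 without cell 4.

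Among 15 eligible sorting nexin and retromer genes, Snx5 and its near relative Snx32 were called higher. Snx32 was at 135, 0, 202, 1172 and 152 CPM, against a median of 5.03 CPM and 11 of 24 insensitive cells at 10 CPM, a difference of 2.96, or 2.03 without cell 4. Snx10 was called lower at -2.71, while the list's median lay at -0.96. In sterol synthesis 2 of 10 eligible genes were called lower. Beside Msmo1 this was Hmgcs1, the enzyme that makes HMG-CoA, at 0, 0.409, 21.5, 0 and 1.28 CPM, against a median of 55.1 CPM in insensitive cells. The other 8 did not differ by 2, and the list median of -0.31 lay above that of all genes.

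Calcium-binding genes were close to the background, with 1 of 16 called higher and 2 lower. Calb2, or calretinin, was at 70.3, 144, 137, 549 and 26.9 CPM, against a median of 9.67 CPM and 12 of 24 insensitive cells at 10 CPM, a difference of 3.29, or 2.73 without cell 4. It was thus present in all 5 cold-sensitive cells, like Fgf13 and Snx5. Camk2b and Vsnl1 differed by -2.09 and -2.01, and by -0.94 without cell 1 and -1.55 without cell 3. Uqcrfs1, the iron-sulfur subunit of complex III, was at 23, 148, 346, 942 and 334 CPM, against a median of 106 CPM, a difference of 2.72, or 2.18 without cell 4. Its partner Cyc1 differed by -2.06, and by -0.97 without cell 2. Prkar1a, a regulatory subunit of protein kinase A present in all 24 insensitive cells at 39.4 CPM or more, was at 158, 0.819, 264, 2.31 and 196 CPM, a difference of -3.13 that rested on cells 2 and 4 and was -2.07 without cell 2.

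Further calls came singly. Ran, its activator Rangap1 and the import receptor Kpnb1 were called lower among 10 eligible nuclear transport genes, at -2.24, -2.65 and -2.01, and each call ended with 1 cell left out: Ran at -1.25 without cell 4, Rangap1 at -1.77 without cell 3 and Kpnb1 at -1.74 without insensitive cell 3. The same held for Ndufb11 of complex I (-2.45, or -1.68 without cell 4), Sucla2 of the citric acid cycle (-2.40, or -1.44 without cell 2), the early gene Junb (-2.51, or -1.61 without cell 4), the heat shock gene Hspa1a (2.05, or 1.37 without cell 2) and the imprinted genes Igf2 (2.54, or 1.46 without cell 1) and Magel2 (-2.28, or -1.95 without insensitive cell 19). None of 61 eligible ribosomal protein genes, 15 ATP synthase genes, 11 complex IV genes, 21 synaptic vesicle genes or 15 pan-neuronal genes was called.

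The microglia list was high in cells 1, 2 and 5, and the other glial lists did not follow that split. Of 11 eligible microglia markers 5 were called higher, all 11 lay above 0 and the median was 1.73, but it was 0.32 within letters and 0.80 without cell 1. Ctss, a microglial protease, was at 2945, 2863, 171, 1.16 and 470 CPM, against a median of 8.58 CPM and a highest value of 4158 CPM in insensitive cells. The calls on C1qa, C1qb, Trem2 and P2ry12 ended with 1 cell left out, at 1.18, 1.91 and 1.04 without cell 1 and at 0.95 without cell 2, and Trem2 differed by -0.30 within letters. Mobp, of oligodendrocytes, differed by 2.54, or 1.37 without cell 1, and Itm2a by 2.57, or 1.76 without cell 3. Slc1a3, the astrocyte glutamate transporter, was called lower at -2.92, with at most 0.409 CPM in a cold-sensitive cell, against 9 of 24 insensitive cells at 10 CPM.

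**Figure D4:**
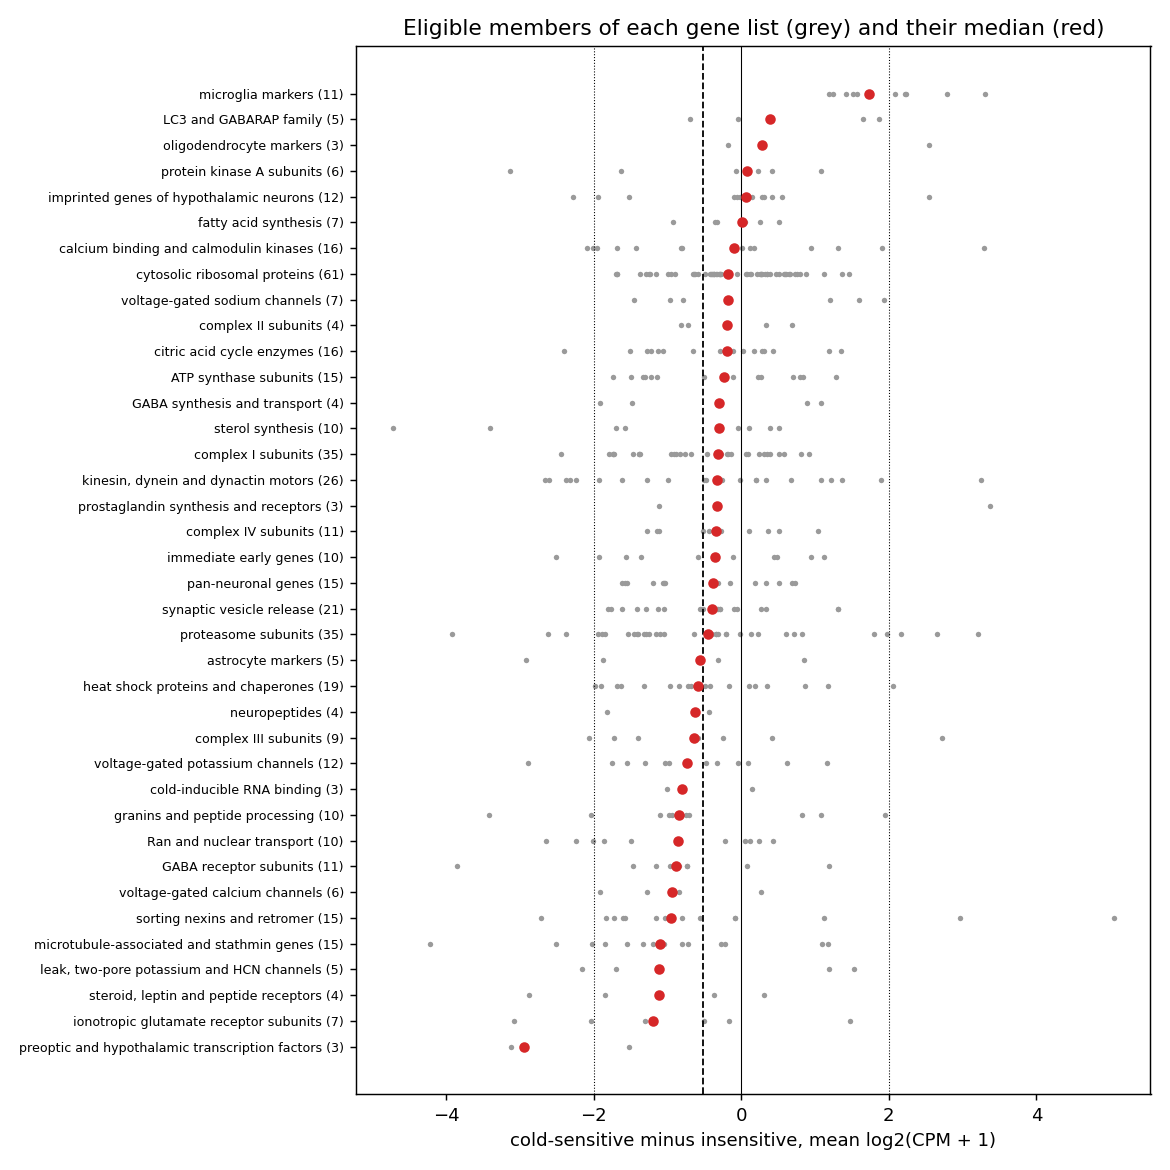
Each row is a list with the number of its eligible members in parentheses; grey points are the members' differences, cold-sensitive minus insensitive in mean log2(CPM + 1), and red points their median. The dashed line is the median of all eligible genes at -0.52 and dotted lines mark -2 and 2; lists with at least 3 eligible members are shown, and among these the microglia median of 1.73 lies highest and that of 3 transcription factors, -2.95, lowest.

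Cell 1 had GABAergic and glutamatergic markers together. Gad1 and Gad2, the enzymes that make GABA, stood at 72.2 and 135 CPM and Slc17a6, the vesicular glutamate transporter of the hypothalamus, at 54.3 CPM. Among peptides it held Penk at 158 CPM, Tac1 at 107 CPM and Pnoc at 96.5 CPM. Its receptors included Prlr, for prolactin, at 161 CPM, and its potassium channels included Kcnd2, at 114 CPM. It carried the most microglia and oligodendrocyte RNA of the 5, with C1qb at 3083 CPM and Mobp at 1018 CPM, and its Ptgds, a prostaglandin D synthase rich in oligodendrocytes and meninges, was 28137 CPM, against a median of 168 CPM in insensitive cells. Ptgds was called higher over the class as well: it was at 1318, 461, 1513 and 4314 CPM in cells 2 to 5, and the difference was 3.37, or 2.51 without cell 1. In insensitive cells it ran up to 37958 CPM, and summed counts gave 6166 CPM in cold-sensitive cells and 5227 CPM in insensitive cells. At 100 CPM or more, 80 genes were found in it that stayed below 10 CPM in the other 4 and reached 10 CPM in at most 10% of insensitive cells. The 5 highest were Crabp2, Birc5, Serping1, Cdc20 and Ptgs1, at 307 to 344 CPM. Birc5 and Cdc20 act in cell division, and no insensitive cell had 10 CPM of either. In brain Ptgs1 is a gene of microglia.

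Cell 2 was GABAergic by its enzymes, with Gad2 at 754 CPM and Gad1 at 144 CPM, and had 0.409 CPM of Slc17a6. It held Avp at 1233 CPM, Vip at 215 CPM and Sst at 54.9 CPM. Avp also reached 10 CPM in 15 of 24 insensitive cells and Vip in 1. It had Trhr, the receptor for thyrotropin-releasing hormone, at 87.6 CPM, and the transcription factors Meis2 at 190 CPM and Foxp2 at 102 CPM. Kcnip4, Dpp6 and Kcna2, of A-type and delayed potassium channels, were at 315, 235 and 122 CPM. Of 82 genes that met the same rule in this cell, Mvd, Zfp14, Ndst3 and Dph5 were among the 5 highest, at 413 to 515 CPM. Mvd is an enzyme of sterol synthesis, the list in which Msmo1 was at 0.409 CPM in this cell.

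Cell 3 was glutamatergic by Slc17a6, at 190 CPM, and had the deepest library. Slc17a8, a further vesicular glutamate transporter, was at 4.75 CPM, and Gad1 and Gad2 were at 8.40 and 1.46 CPM, all below 10 CPM. Calb1, or calbindin, stood at 1186 CPM, within the range of 0.486 to 2110 CPM in insensitive cells. Its peptides were Penk at 102 CPM, Sst at 89.1 CPM, Gal at 56.2 CPM and Nts at 54.4 CPM. It had the most channel genes of the 5, with 11 of 28 voltage-gated potassium channel genes at 10 CPM, against a median of 6 in insensitive cells, and 8 of 15 calcium channel genes, against a median of 3. Fos, the immediate early gene, was at 3348 CPM. Its microglia markers summed to 361 CPM, and Fgf13 was at 137 CPM. The 80 genes that met the rule here were led by Pck2, Lysmd3, C1ql2, Wdr35 and Gtf3c4, at 287 to 413 CPM; C1ql2 is a synaptic organizer of glutamatergic neurons.

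Cell 4 could not be placed by transmitter. Gad1 and Gad2 were at 1.16 and 5.78 CPM and Slc17a6 at 0, and 0 of 28 potassium channel genes and 0 of 15 calcium channel genes reached 10 CPM. Its RNA lay in few genes at high levels: Snap25 at 2441 CPM, Nefl at 1394 CPM, Fos at 2219 CPM and Egr1 at 1076 CPM. Gabbr1, a subunit of the GABA-B receptor, was at 690 CPM. Snx5 and Fgf1 were at 2009 and 1004 CPM, above all other cells of both classes, and Fgf13 was at 68.2 CPM, the lowest of the 5. It had 15 such genes, led by Triqk, Pola2, Ftsj3, Tada2a and Zfp93, at 622 to 2069 CPM.

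Cell 5 was GABAergic by its enzymes, with Gad1 at 307 CPM and Gad2 at 429 CPM, and had 0.639 CPM of Slc17a6. It was the only cold-sensitive cell with Adcyap1, the PACAP precursor and a marker of warm-responsive preoptic neurons in mice, at 58.8 CPM, and with Esr1, the estrogen receptor, at 85.0 CPM. Adcyap1 reached 10 CPM in 6 of 24 insensitive cells and Esr1 in 2. Trh was at 56.9 CPM. The two-pore potassium channel Kcnk3 stood at 180 CPM and Kcnk4 at 100 CPM, and no insensitive cell had Kcnk3 at 10 CPM. Its 54 such genes were led by Lhx6 at 421 CPM, a transcription factor of GABAergic neurons from the medial ganglionic eminence, followed by Hmga2-ps1, Psat1, Exog and Mlycd at 228 to 311 CPM. Lhx6 had at most 0.577 CPM in insensitive cells and 0% of warm-sensitive, silent sensitive and silent insensitive cells reached 10 CPM.

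**Figure D5:**
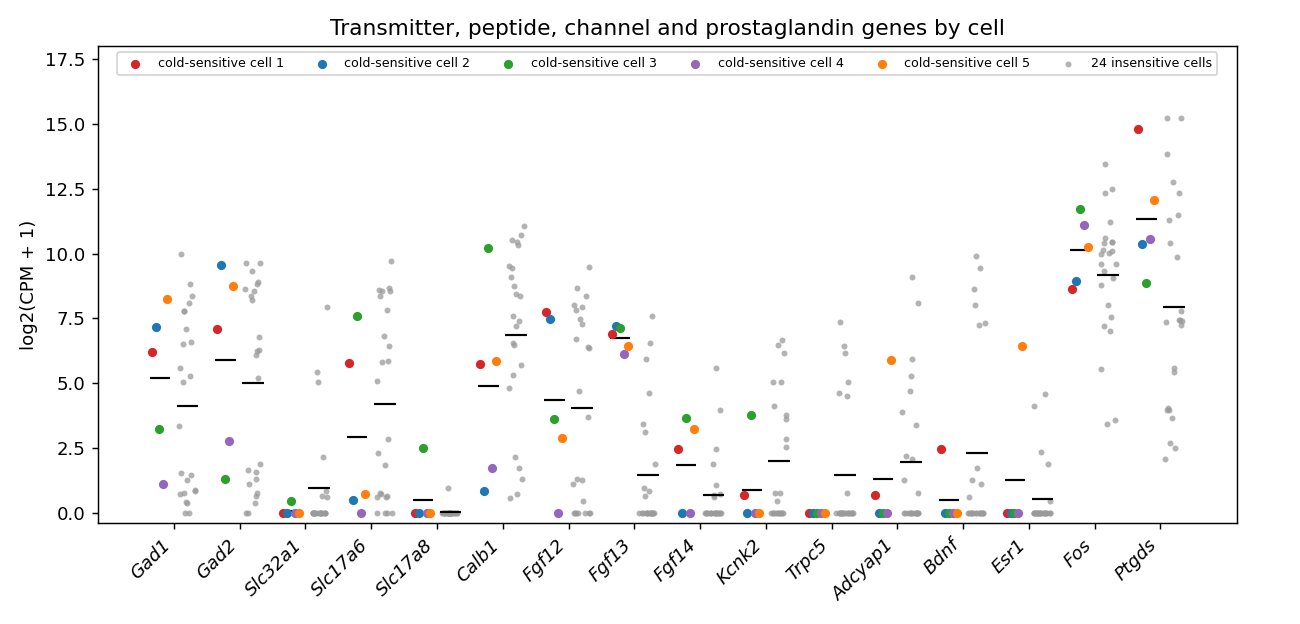
Transmitter, channel, peptide and prostaglandin genes in log2(CPM + 1), with the 5 cold-sensitive cells on the left of each gene in colour, the 24 insensitive cells on the right in grey, and bars for class means. Cold-sensitive cells 1, 2 and 5 hold Gad1 and Gad2, cells 1 and 3 hold Slc17a6, and the 5 cells lie together for Fgf13.

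The 5 cells thus shared no transmitter. Gad1 and Gad2 reached 10 CPM in 3 of 5 cold-sensitive cells, against 12 and 14 of 24 insensitive cells, and Slc17a6 in 2 of 5, against 12 of 24. Slc32a1, the vesicular GABA transporter, had at most 0.365 CPM in a cold-sensitive cell and reached 10 CPM in 3 of 24 insensitive cells. Bdnf, with Adcyap1 a marker of warm-responsive preoptic neurons in mice, reached 4.47 CPM in cell 1 and was at 0 in the other 4, against 6 of 24 insensitive cells at 10 CPM. Ptger3, the prostaglandin receptor tied to fever, was at 0 in all 29 cells. Lepr, the leptin receptor, was at 0 in all 5 cold-sensitive cells and at most 0.577 CPM in insensitive cells. Cirbp and Rbm3, RNA-binding proteins induced by mild cooling, reached 10 CPM in 2 of 5 cold-sensitive cells each, against 13 and 8 of 24 insensitive cells, with differences of -1.01 and 0.15. Fos reached 10 CPM in all 5 cells and in 23 of 24 insensitive cells, with summed levels of 1615 CPM in each class.

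The expression profiles of the 5 cells were compared over the eligible genes. The median Pearson correlation of log2(CPM + 1) of a cold-sensitive cell with the other 4 ran from 0.275 for cell 4 to 0.335 for cell 1, against 0.238 to 0.294 with the insensitive cells. Pairs of insensitive cells ran from 0.083 to 0.385 with a median of 0.248. These correlations are across 4644 genes, which are not independent replicates, and cells also shared depth, Rn45s share and glial RNA. Of these genes 3017 were eligible through insensitive cells alone and 93 through cold-sensitive cells alone, a choice that by itself makes cells of a class alike, so no closeness of the class is read from these values. The closest cold-sensitive pair, cells 1 and 5 with a correlation of 0.38, included cells with 12463 and 3512 CPM of microglia markers.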

How the data were processed

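Single-cell RNA was measured in 96 patch-clamped preoptic neurons, and the 5 cold-sensitive and 24 insensitive cells were taken by their label for temperature sensitivity. The authors deposited a count table of whole reads for each gene. They also deposited a signal table, which on checking held the same counts over 1 factor for each cell. Per the submitters' processing notes the authors used FastQC, STAR and edgeR on mm10; not given in the sources used here are versions, annotation, counting step and strand.

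CPM is the count per 1000000 counts of the cell, with Rn45s kept in the total. Differences are on the log2(CPM + 1) scale, on which changes of low genes come out too small. No cell was left out of the main comparison: each of the 29 cells had at least 838125 counts, and no pair of cells held identical values. Genes were named by rule: the 12 per direction with the largest difference among eligible genes whose share at 10 CPM differs the same way and whose difference keeps 2/3 of its size without any 1 cell, leaving out predicted genes, clone names and ribosomal protein genes; genes at 10 CPM in all 5 cold-sensitive cells and at most 25% of insensitive cells; per cold-sensitive cell, 5 genes at 100 CPM or more there, below 10 CPM in the other 4 and at 10 CPM in at most 10% of insensitive cells; a panel of transmitter, FGF, peptide, channel and temperature genes; and members of the 43 lists. No gene without a count in all 5 cells reached 10 CPM in 60% of insensitive cells. The 7 genes below 10 CPM in all 5 cells were picked out by a similar rule added after their values were seen. Some genes that these rules named are not reported here. Members, lists and rules were chosen with earlier results of these cells known.

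No test was made, since no label names an animal. Intervals are exact 95% intervals, Clopper-Pearson for shares of cells and Poisson for summed counts. Those for shares take cells as independent draws, although cells may share an animal. Those for summed counts cover the counting of reads only, and reads carry no molecular identifiers. At 1000000 counts 10 CPM is 10 reads. The alternatives were pseudocounts of 0.1 and 10 CPM, totals without Rn45s, TMM and DESeq2 size factors, the deposited signal values, centring on the median gene, title letters, thinning to 200000 counts outside Rn45s, summed counts, other limits on low genes, and cells left out; leaving out cells rich in microglia markers was chosen after seeing the data. The difference and call steps were tested on simulated data. Gene positions are from GENCODE M21 on mm10, which held 1 entry for 768 of 771 genes looked up. Figures were drawn with matplotlib 3.10.9 and intervals computed with scipy 1.17.1, under Python 3.11.15 with pandas 2.3.3 and numpy 2.4.6. Size factors came from DESeq2 1.42.0 and edgeR 4.0.16 in R 4.3.3.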

Additional observations from a re-analysis of the deposited data

Results flagged for a closer look

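Among 76 sets of 5 values were the named genes and list sums of the cold-sensitive cells that reached 10 CPM. In 12 sets the gap of the highest or lowest cell to the next passed Dixon's 95% limit of 0.71 of the range. This limit flags about 1 in 20 sets of independent, normally distributed values. The sets here share the same 5 cells and are not independent. Npdc1, Psmc1 and Coa3 were named for a lower mean in cold-sensitive cells, a choice that by itself favours 1 high cell standing apart. The number of flags is therefore not compared with the 1 in 20, and no excess is read from it.

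Cell 4 was far below the other 4 cold-sensitive cells in 6 of the 12 flagged sets. On a log10 scale these were the summed leak, two-pore potassium and HCN channels (2.311 CPM), the steroid, leptin and peptide receptors (2.311 CPM), the heat shock proteins and chaperones (722.3 CPM), the sterol synthesis genes (10.4 CPM) and the protein kinase A subunits (10.4 CPM). On a log2 scale it was Coq9, at 0.0 CPM. Cell 4 also had the fewest genes with a count, 2199, and 69.8% of its counts in Rn45s; the part of library quality in these values was not tested.

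Cell 3 was far above the others in 3 sets: the summed calcium-binding and calmodulin kinase genes, at 8571 CPM, Npdc1, at 417.8 CPM, and the two-pore potassium channel Kcnk2, at 12.78 CPM. Cell 5 was far above the others for Psmc1 at 82.47 CPM, Coa3 at 83.11 CPM and Adcyap1 at 58.81 CPM. The number of insensitive cells above these levels was 6 for Npdc1, 6 for Kcnk2, 13 for Psmc1, 10 for Coa3 and 3 for Adcyap1.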

How the results depend on the processing

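With every cell and a pseudocount of 1 CPM, 224 genes were called higher and 473 lower. A pseudocount of 0.1 CPM gave 420 and 1099, and one of 10 CPM gave 34 and 29. Genes higher numbered 352 with DESeq2 size factors, 379 after thinning and 139 with eligibility at 50 CPM. Centring on the median gene gave 406 higher and 194 lower, so 67.7% of calls were higher in place of 32.1%; that share was 42.9% with TMM, 44.8% with DESeq2 size factors and 45.5% with the deposited signal values. Summed counts gave 88 and 1150, and leaving out cells over 3000 CPM of microglia markers, with 2 cold-sensitive and 19 insensitive cells left, gave 338 and 1132. With each cold-sensitive cell left out in turn the counts ran from 193 to 500 higher and from 376 to 804 lower; the 500 came without cell 4 and the 804 without cell 3. The cause of these shifts was not tested. Among 37 named genes no called difference changed sign. Gad1, Gad2, Fgf12 and Rbm3, which were not called, did so in at least 1 alternative; Gad2 was at -2.22 and Fgf12 at -2.51 without cells over 3000 CPM of microglia markers. Of the named genes' values, 621 alternative ones moved by less than the spread over cells and 76 by more. Of the list medians 699 alternative values moved by less than the spread and 23 by more; that of the leak, two-pore potassium and HCN channels was 1.36 with eligibility at 50 CPM, beside -1.11. No cell had over 75% of its counts in Rn45s, so that alternative left out none. No paired analysis was possible because the replicate numbers only name cells in accession order and no test was made. Depth limits these calls: 5 cells of 865299 to 2738417 counts cannot show a gene below 10 CPM as absent.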

Other observations

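The 18 cells labelled unknown entered no comparison. Fgf13 reached 10 CPM in 3 of them, from 0 to 204 CPM with a median of 0.352 CPM. Snx5 reached it in 5, from 0 to 546 CPM with a median of 1.26 CPM, and Calb2 in 12, from 0 to 673 CPM with a median of 46.9 CPM. Among genes low in cold-sensitive cells, Map6 and Dnajc6 reached 10 CPM in 12 each, with medians of 31.5 and 71.9 CPM, while Msmo1 reached it in 3, with a median of 1.01 CPM and a highest value of 787 CPM.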
